A study of Mus musculus with 6 samples.

Results

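Genes of protein folding in the endoplasmic reticulum (ER) and of the unfolded protein response (UPR) were followed in mouse splenic CD11b+Gr-1high cells, the granulocytic cells that accumulate in the spleen of tumor-bearing or cytokine-treated mice. The set held 39 genes, taken as every gene whose symbol in the array annotation was on a list of ER chaperones, oxidoreductases, degradation factors, translocon subunits, stress sensors and stress targets. They were read by 70 probes, out of 19057 named genes and 45281 probes on the array. Membership rested on the symbol alone. Total RNA of sorted cells was hybridized to 6 Illumina MouseWG-6 v2 BeadChips, 2 for each of 3 groups of female BALB/c mice. WT mice were wild type and carried no tumor. G-CSF mice received recombinant G-CSF, the growth factor of granulocytes, at 10 µg daily for 5 days. 4T1-TB mice carried a tumor grown from 50000 4T1 cells, a mammary carcinoma line of BALB/c origin, placed in the mammary gland. The sorts came from 2 separate experiments, and the sources used here do not say whether animals were pooled for an array or whether WT mice received a vehicle.

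The ER folds and glycosylates secreted and membrane proteins. When unfolded protein builds up there, the sensors Ern1 (IRE1), Eif2ak3 (PERK) and Atf6 act through the transcription factors Xbp1, Atf4 and the Atf6 fragment, which raise chaperones, disulfide isomerases and the machinery of ER-associated degradation. Atf4 also switches on amino acid supply genes, and with prolonged stress the proapoptotic factor Ddit3 (CHOP). Granulocytes fill their granules through this route while they mature, and Xbp1 is known for its part in secretory cells.

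Short promoter elements through which the UPR acts are known from some of these genes, and the matches found are shown to let the levels below be read beside them. RefSeq promoter windows (GRCm38.p6, 250 bases before the start) were at hand for 33 of the 39 genes. The ER stress element, the letters CCAAT and CCACG with 9 bases between them on either strand, stood in 9 of the 33 windows (27.3%) and in 35 of 27025 windows of all genes (0.13%). In the sequences printed here, 5′ to 3′ on the strand of the gene, the capitals mark the matched letters. A match is a description of letters and does not show that a factor binds.
Hspa5, chr2:34772013-34772055, plus strand: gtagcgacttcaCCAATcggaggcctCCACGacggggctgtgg
Hsp90b1, chr10:86705521-86705563, minus strand, element on the opposite strand: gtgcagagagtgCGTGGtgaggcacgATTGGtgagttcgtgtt
Calr, chr8:84847063-84847105, minus strand, element on the opposite strand: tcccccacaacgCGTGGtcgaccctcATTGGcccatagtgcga
Pdia6, chr12:17266479-17266521, plus strand: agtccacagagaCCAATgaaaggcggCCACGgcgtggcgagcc
Syvn1, chr19:6046520-6046562, plus strand: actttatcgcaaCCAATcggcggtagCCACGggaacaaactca

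The other 4 windows with this element belonged to Dnajc3, Creld2, Canx and Derl3, and Hsp90b1 held it at 2 places. The shorter second form, ATTGG and CCACG with 1 base between them, was found in Herpud1 alone of the 33 (3.03%, against 10 of all genes, 0.037%). The letters TGACGTGG of the UPR element were in none of the 33 windows and in 0.603% of all. The Atf4 composite element TGATGNAA was found in 4 of the 33 (12.1%) and in 3.91% of all, namely in Herpud1, Atf3, Chac1 and Asns. The Herpud1 second-form match and the composite matches of Chac1 and Asns are printed because those genes return in the results.
Herpud1, chr8:94386365-94386399, plus strand: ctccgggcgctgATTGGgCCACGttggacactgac
Chac1, chr2:119351037-119351068, plus strand, element on the opposite strand: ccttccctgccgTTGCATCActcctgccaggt
Asns, chr6:7693213-7693244, minus strand: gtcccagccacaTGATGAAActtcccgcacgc

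**Figure D1:**
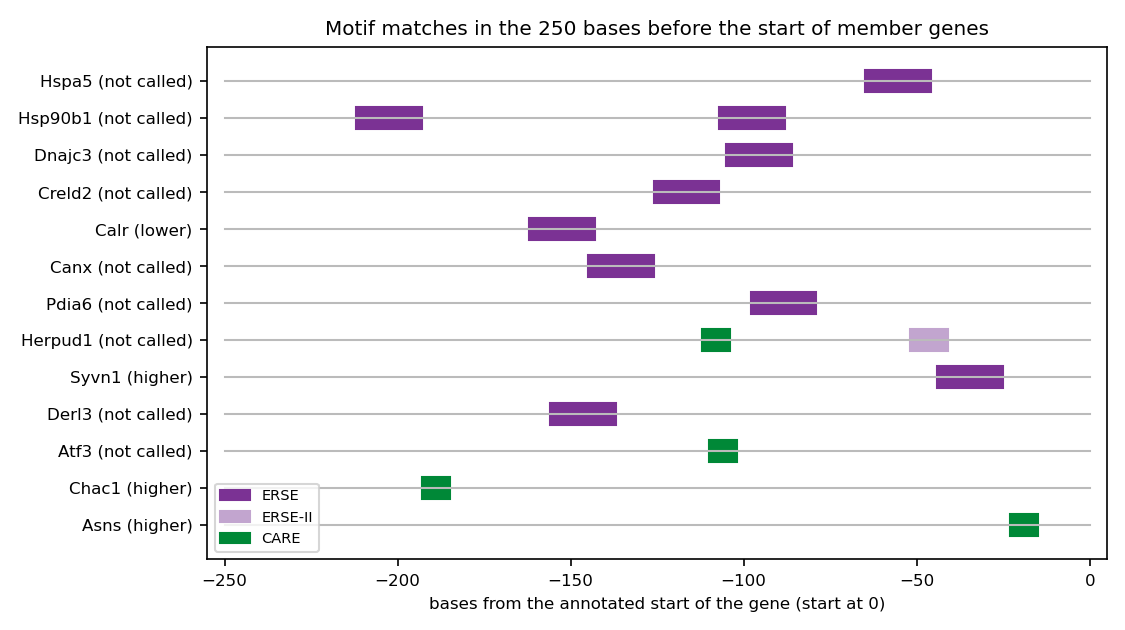
Distance in bases before the gene start of each promoter element found in the member genes, by gene and by kind of element. The Asns composite element lay 23 to 16 bases before the start and that of Chac1 193 to 186, while the ER stress elements of Syvn1 and Hspa5 lay 44 to 26 and 65 to 47 bases before it.

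Array depth and cell identity were examined before the genes. Median intensities ran from 117.2 to 126.9, and 7421 to 10036 probes per array were detected (detection p under 0.05). Of 12 neutrophil markers measured, 10 were detected on all 6 arrays, Mmp8 was detected on none, and Itgam, the gene of CD11b itself, was detected on both WT arrays and on no other. The mean level of the 12 was 11.44 and 11.47 in WT and 10.60 to 10.82 on the other 4 arrays, and 3 were called lower in each comparison with WT. Itgam was below WT by at least 1.77-fold in 4T1-TB and 1.78-fold in G-CSF, and the G-CSF receptor gene Csf3r had log2 differences of −3.52 and −2.83. The other gene called lower was the granule gene Ngp in 4T1-TB (−4.32) and S100a8 in G-CSF (−0.48, which median centring turned to 0.18), while Ltf was called higher in 4T1-TB (1.17). The part of this shift in the results on the 39 genes was not tested. Erythroid markers set G-CSF replicate 1 and 4T1-TB replicate 1 apart: the heme synthesis enzyme Alas2 read 11.12 and 11.15 there on the log2 scale and at most 6.93 on the other 4 arrays. The mean level of 7 erythroid genes was 9.18 and 9.42 on those 2 arrays and 7.05 to 7.40 elsewhere. Plasma cells, which are rich in ER, left little trace: the mean level of 10 of their genes was between 6.95 and 7.05 on every array, 6 of the 10 were not detected on any array, and none passed the test. B cell and T cell markers had 0 genes called, though 4 of 8 and 3 of 9 were detected on at least 2 arrays. The T cell gene Cd3d was detected on all 6 arrays. It stood above WT by 1.22 in 4T1-TB and 0.98 in G-CSF (log2) without being called. In 4T1-TB 2 of 7 immature granulocyte genes were called higher than in WT, among them Fcnb (2.68, log2). So were 2 of 10 proliferation genes, among them the mitosis gene Birc5 (1.67). The list medians were 1.01 and 0.10, and 5.41% of all genes and 14.0% of detected genes were called higher. In G-CSF neither list had a call. Of 12 macrophage genes 4 were called lower in each comparison with WT. The shares called lower were 3.17% of all genes in 4T1-TB and 2.85% in G-CSF (8.22% and 7.39% of detected genes). In RNA of whole sorts, fewer cells of a type and less RNA per cell cannot be told apart.

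Of the 39 genes, 29 were detected on at least 2 arrays by their brightest probe, 13 of them on all 6. Across all named genes 38.5% met the former mark. The other 10 (Hspa5, Hyou1, Manf, Canx, Pdia4, Pdia6, Derl1, Derl3, Ern1 and Atf6) were detected on 1 array or none, read 6.76 to 7.13 on every array, and so had no measured level to compare. Values are the deposited quantile-normalized log2 intensities, on which a dim probe sits near 7. Each gene is given by its brightest probe, levels are never set against another gene's, and differences were tested with limma over all probes with Benjamini-Hochberg adjusted p.

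Against WT, 4T1-TB cells had 7 of the 39 genes higher (17.9%), where 5.41% of all genes and 14.0% of detected genes were called higher. They were the ligase Syvn1, the translocon genes Sec61g, Ssr3 and Ssr4, the factor Xbp1, and the Atf4 pathway genes Chac1 and Asns. Sdf2l1, Calr and Trib3 were the 3 genes called lower (7.69%), against 3.17% of all genes and 8.22% of detected genes. In G-CSF cells 6 genes were higher (15.4%), with 4.12% of all genes and 10.7% of detected genes as background, and 4 were lower (10.3%), with 2.85% and 7.39%. The 6 were those of the 4T1-TB comparison less Ssr3, and the 4 were its 3 plus Pdia3, but both comparisons use the same 2 WT arrays. The median log2 difference of the 39 genes was 0.01 in 4T1-TB and −0.00 in G-CSF, beside 0.01 for all genes in each, and it became 0.11 in G-CSF when arrays were only centred on their medians. The set as a whole did not move one way. The counts by role and by promoter element that follow are read against the shares of all and of detected genes given here. Nothing particular to a role or an element is drawn from them. Where 2 differences are given side by side, that of 4T1-TB comes first and that of G-CSF second.

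The calls moved with the arrays that were kept. Without WT replicate 1, Xbp1 and Calr were the only members called in either comparison with WT, where all genes gave 1.02% higher and 1.21% lower in 4T1-TB and 0.924% and 1.25% in G-CSF. Without WT replicate 2 the calls were Ssr3, Xbp1, Calr and Trib3 in 4T1-TB (0.981% and 1.22% of all genes) and Calr and Trib3 in G-CSF (0.871% and 1.19%). The 4T1-TB comparison called Chac1, Sdf2l1 and Pdia3 without 4T1-TB replicate 1 (1.39% and 1.54%), and Asns, Sdf2l1, Pdia3 and Herpud1 without replicate 2 (1.5% and 1.69%). Leaving out either G-CSF array, it called 11 members higher and 9 lower (11.9% and 6.03%). The G-CSF comparison called Syvn1 and Chac1 higher and Sdf2l1, Pdia3, Herpud1 and Trib3 lower without either 4T1-TB array (2.38% and 2.27%), and 10 higher and 8 lower without G-CSF replicate 2 (11.8% and 5.92%). Leaving out both arrays with erythroid signal, a setting chosen after seeing the data, kept every call made with all 6 arrays. It gave 10 higher and 8 lower in 4T1-TB (11% and 5.69% of all genes) and 6 and 7 in G-CSF (8.18% and 4.2%), with a spread that then comes from the WT pair alone. When the arrays were centred on their medians and not quantile-normalized, no member passed in any comparison (all genes 0.105% higher and 0.0105% lower in 4T1-TB, 0.388% and 0.0157% in G-CSF), and the differences of the 13 genes that were called or changed at least 2-fold kept their signs. Of the 29 detected members, 3 turned sign in 4T1-TB (Creld2, Herpud1 and Ppp1r15a) and 6 in G-CSF (P4hb, Herpud1, Sec61a1, Ssr1, Ssr2 and Ppp1r15a), none of them called under either scaling. The median difference of all detected genes went from 0.11 to 0.24 in 4T1-TB and from 0.11 to 0.30 in G-CSF under that centring. The 95th percentile of intensity was 247.3 and 207.2 in WT and 336.1 to 542.7 on the other 4 arrays, and its part in the calls was not tested.

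**Figure D2:**
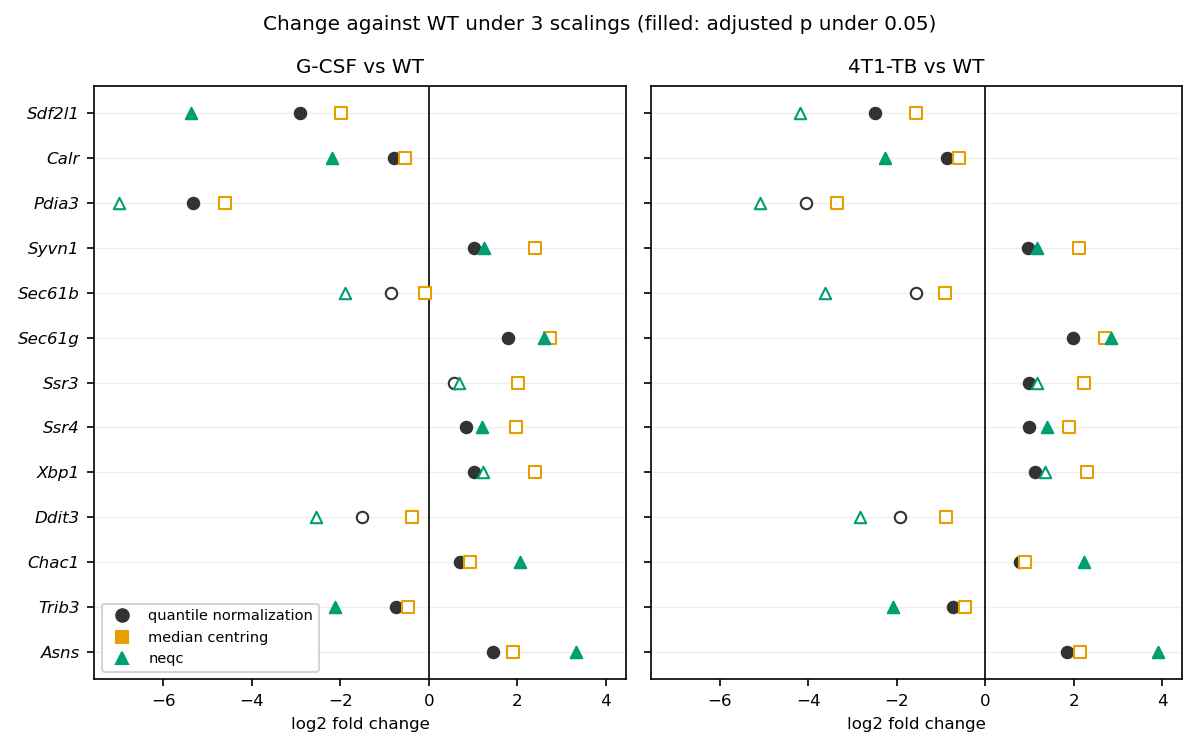
Log2 difference from WT of the 13 member genes called or changed at least 2-fold, under the deposited quantile normalization, median centring and neqc background correction, with filled symbols for an adjusted p under 0.05. These 13 genes keep their signs under all 3 scalings, no symbol is filled under median centring, and Herpud1 and Ppp1r15a, which turn sign in both comparisons, are not plotted.

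**Figure D3:**
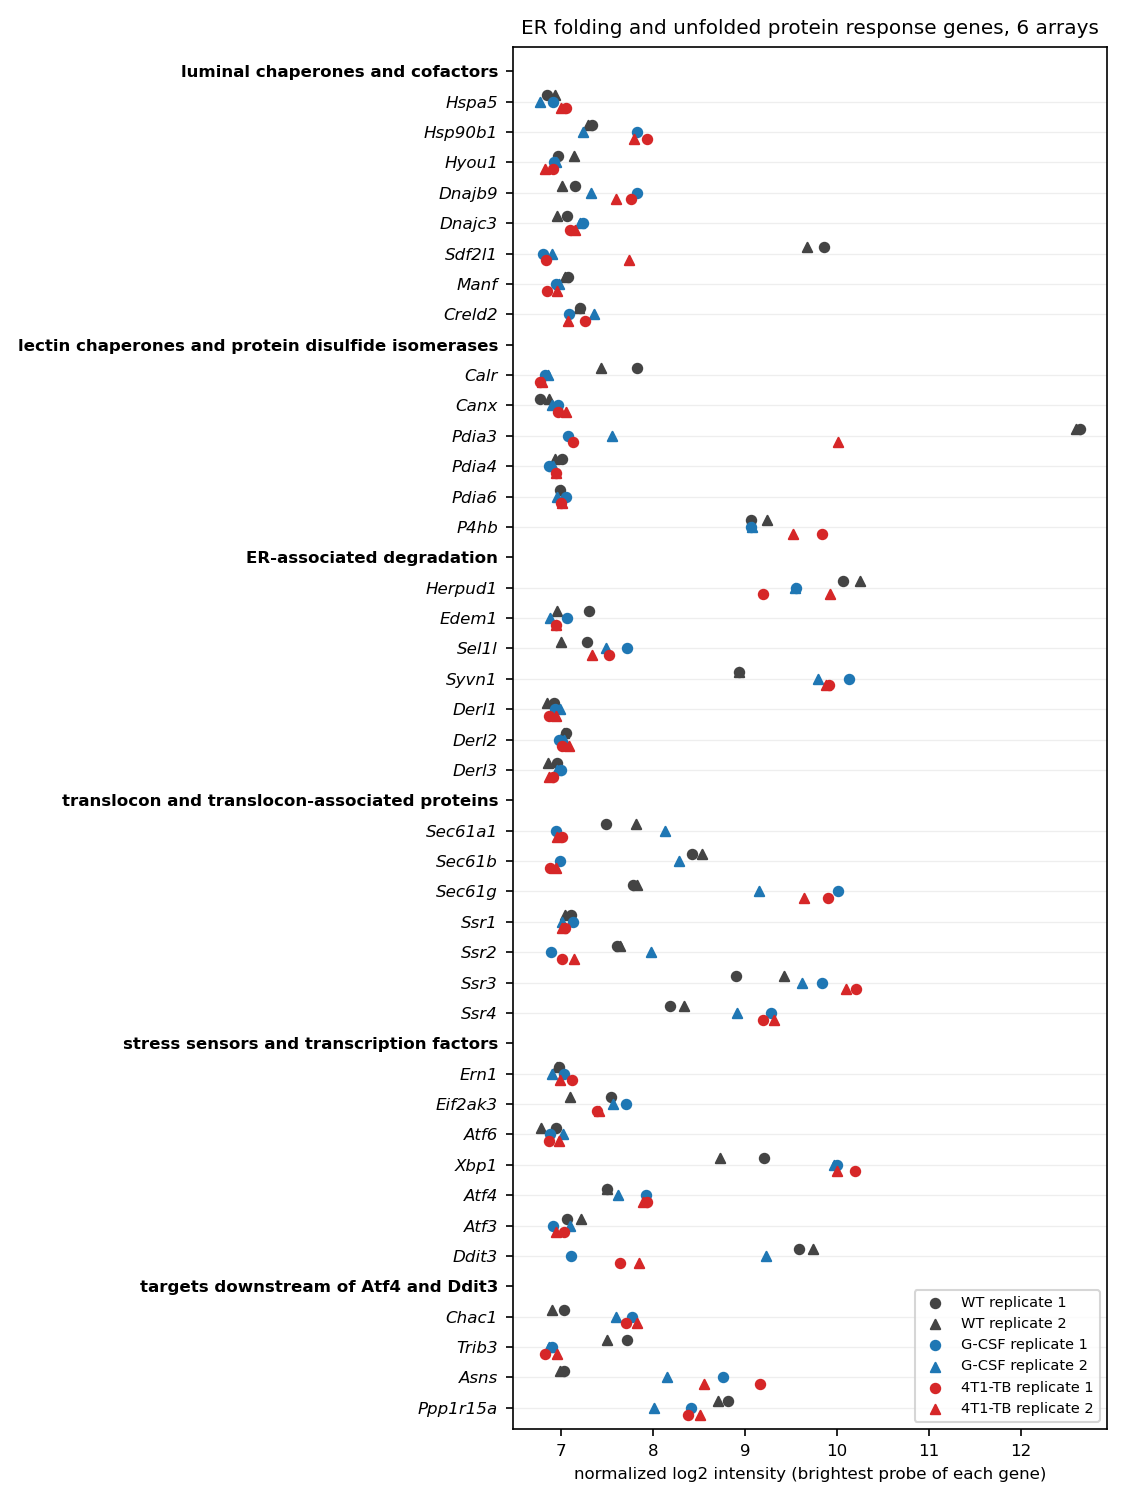
Normalized log2 intensity on each of the 6 arrays for the brightest probe of all 39 member genes, with WT, G-CSF and 4T1-TB arrays in separate colors. Pdia3 stood at 12.65 and 12.61 in WT and between 7.08 and 10.01 elsewhere, while Asns stood at 7.03 and 6.98 in WT and between 8.15 and 9.16 elsewhere.

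Among the luminal chaperones and their cofactors, 0 of 8 genes were higher in 4T1-TB and 1 was lower, with 5 of the 8 detected on at least 2 arrays. Sdf2l1, a cofactor of the Hspa5 chaperone cycle, read 9.87 and 9.67 in WT, 6.80 and 6.90 in G-CSF, and 6.83 and 7.74 in 4T1-TB. Both WT arrays lay far above the other 4, with 4T1-TB replicate 2 between them and the rest. It fell by 2.48 in 4T1-TB (log2, SE 0.28, limma adjusted p = 0.00909). In G-CSF neither array detected it, and WT exceeded that group by at least 6.66-fold (adjusted p = 0.00574). The master chaperone Hspa5 (BiP) was detected on 1 array, a 4T1-TB one, and its 6 values ran from 6.77 to 7.05, too dim to follow. Hsp90b1 (GRP94), the ER member of the Hsp90 family, read 7.34 and 7.29 in WT, 7.82 and 7.23 in G-CSF, and 7.94 and 7.80 in 4T1-TB, where the difference from WT was 0.55 (adjusted p = 0.244). Dnajb9, an Hspa5 cochaperone and a target of Xbp1, differed by 0.60 in 4T1-TB and 0.49 in G-CSF (adjusted p = 0.153 and 0.276). Dnajc3 and Creld2 differed from WT by −0.04 to 0.22, without passing the test.

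Among the lectin chaperones and protein disulfide isomerases, Pdia3 alone had the largest difference of the set in both comparisons with WT. Pdia3 (ERp57), which forms disulfides in glycoproteins and serves MHC class I loading, read 12.65 and 12.61 in WT, 7.08 and 7.55 in G-CSF, and 7.13 and 10.01 in 4T1-TB. Its WT arrays agreed closely, and the 2 4T1-TB arrays differed from each other by more than any other member's pair in that group. In intensity, WT stood at 4922.3 and 3344.7, against 140.4 and 193.4 in G-CSF and 145.7 and 1060.6 in 4T1-TB. The G-CSF difference was −5.32 (95% interval −7.50 to −3.14, adjusted p = 0.032), and that of 4T1-TB was −4.06 (−6.24 to −1.88), which did not pass with all 6 arrays (adjusted p = 0.0678). Without 4T1-TB replicate 1, an array with erythroid signal, that difference was −2.61, and without replicate 2 it was −5.50. Leaving out a 4T1-TB array also takes the gap between that pair out of the spread. Without WT replicate 1 or 2 the 4T1-TB difference was −4.04 and −4.08 and was not called. Leaving out either WT array ended the G-CSF call (adjusted p = 0.2 and 0.218). A single probe reads Pdia3, so no other probe could be set beside it.

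Calr, the calcium-binding lectin chaperone that works with Pdia3, read 7.82 and 7.44 in WT, 6.83 and 6.85 in G-CSF, and 6.77 and 6.79 in 4T1-TB. It was detected on both WT arrays and on none of the others. WT exceeded 4T1-TB by at least 1.5-fold (log2 −0.85, adjusted p = 0.0198) and G-CSF by at least 1.51-fold (−0.79, adjusted p = 0.0282). Its other probe was detected on no array. P4hb (PDI), the most general disulfide isomerase, read 9.07 and 9.24 in WT, 9.07 and 9.07 in G-CSF, and 9.83 and 9.52 in 4T1-TB. The 2 4T1-TB arrays were above all others, yet the difference of 0.52 from WT did not pass (adjusted p = 0.075). In G-CSF its difference was −0.08, and 1.31 with median centring (adjusted p = 0.865 and 0.213). The lectin Canx and the isomerases Pdia4 and Pdia6 were among the dim genes.

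Of 7 genes of ER-associated degradation, Syvn1 alone was called. Syvn1 (HRD1), the membrane ubiquitin ligase that marks unfolded proteins for the proteasome, read 8.93 and 8.94 in WT, 10.13 and 9.80 in G-CSF, and 9.92 and 9.89 in 4T1-TB. All 4 arrays of the treated and tumor-bearing mice lay above both WT arrays. Syvn1 rose by 0.96 in 4T1-TB (SE 0.11, adjusted p = 0.00935) and by 1.02 in G-CSF (adjusted p = 0.00794). Its partner Sel1l, which ties the ligase to its substrates, read 7.28 and 7.00 in WT, 7.71 and 7.49 in G-CSF, and 7.52 and 7.34 in 4T1-TB, with differences of 0.29 and 0.47 that did not pass (adjusted p = 0.416 in 4T1-TB and 0.163 in G-CSF). Herpud1, a scaffold of the same complex and a UPR target, read 10.07 and 10.26 in WT, 9.55 and 9.54 in G-CSF, and 9.19 and 9.93 in 4T1-TB. On this scale every array outside WT was below both WT arrays, with differences of −0.60 and −0.61 (adjusted p = 0.326 and 0.338). A second Herpud1 probe, detected on all 6 arrays, differed by −0.51 and −0.28 on the same scale (adjusted p = 0.135 and 0.511). Median centring turned the differences of the brightest probe to 0.70 and 0.94 (adjusted p = 0.365 and 0.202), so Herpud1 has no settled direction. Edem1 and Derl2 were detected on 2 arrays each and differed from WT by −0.19 to 0.01.

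Of the 7 translocon genes, 3 were called higher in 4T1-TB and 2 in G-CSF, and 0 were called lower by their brightest probe. The Sec61 complex is the channel through which new proteins enter the ER, and the Ssr proteins form the TRAP complex beside it. Sec61g, the smallest channel subunit, read 7.78 and 7.82 in WT, 10.02 and 9.15 in G-CSF, and 9.90 and 9.64 in 4T1-TB. It rose by 1.97 in 4T1-TB (SE 0.28, adjusted p = 0.0171) and by 1.78 in G-CSF (adjusted p = 0.0259). Ssr4 read 8.18 and 8.33 in WT, 9.28 and 8.91 in G-CSF, and 9.20 and 9.31 in 4T1-TB. Neither group overlapped WT. The rise was 0.997 in 4T1-TB (SE 0.13, adjusted p = 0.0144) and 0.84 in G-CSF (adjusted p = 0.0277), and a second Ssr4 probe gave 1.34 and 1.10 (adjusted p = 0.00927 and 0.0184). Ssr3 read 8.90 and 9.43 in WT, 9.84 and 9.62 in G-CSF, and 10.21 and 10.10 in 4T1-TB, a called rise of 0.99 in 4T1-TB (SE 0.18, adjusted p = 0.0401) and an uncalled 0.56 in G-CSF (adjusted p = 0.238).

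The other channel subunits did not follow Sec61g. Sec61b read 8.43 and 8.53 in WT, 6.98 and 8.28 in G-CSF, and 6.88 and 6.94 in 4T1-TB, where no array detected it. That placed 4T1-TB at least 2.7-fold below WT, a difference that did not pass in the fit of all arrays (adjusted p = 0.107). A dimmer second Sec61b probe read 7.53 and 7.42 in WT and 7.04 and 6.88 in 4T1-TB, and that difference of −0.52 did pass (adjusted p = 0.0452). Sec61a1, the pore itself, read 7.48 and 7.81 in WT, 6.95 and 8.13 in G-CSF, and 7.00 and 6.95 in 4T1-TB (−0.67, adjusted p = 0.552). For Ssr2 the values were 7.61 and 7.63, then 6.89 and 7.98, then 7.01 and 7.14 in the same order (−0.54 in 4T1-TB, adjusted p = 0.606). Ssr1 stayed between 7.01 and 7.13.

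Sec61a1, Sec61b and Ssr2, together with Ddit3, were the 4 member genes whose 2 G-CSF arrays differed by at least 1 log2 unit, 11.1% of the detected member probes against 7.56% of all detected probes. In all 4 the G-CSF replicate 1 array lay near or below the 4T1-TB arrays and replicate 2 near WT or above it. The outcome for G-CSF therefore turned on which array was kept. With replicate 1 as the only G-CSF array, Sec61a1, Sec61b, Ssr2 and Ddit3 differed from WT by −0.70, −1.50, −0.73 and −2.56 (adjusted p = 0.0196, 0.000129, 0.00213 and 5.94e-05). With replicate 2 as the only one, the differences were 0.48, −0.20, 0.36 and −0.44 and none passed (adjusted p = 0.131, 0.37, 0.07 and 0.0987). The lone array was assumed to vary like the other groups in these fits. Replicate 1 was the G-CSF array with erythroid signal, whose part in the difference was not tested. 4T1-TB replicate 2, without that signal, read 6.95, 6.94, 7.14 and 7.84 for these 4 genes.

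**Figure D4:**
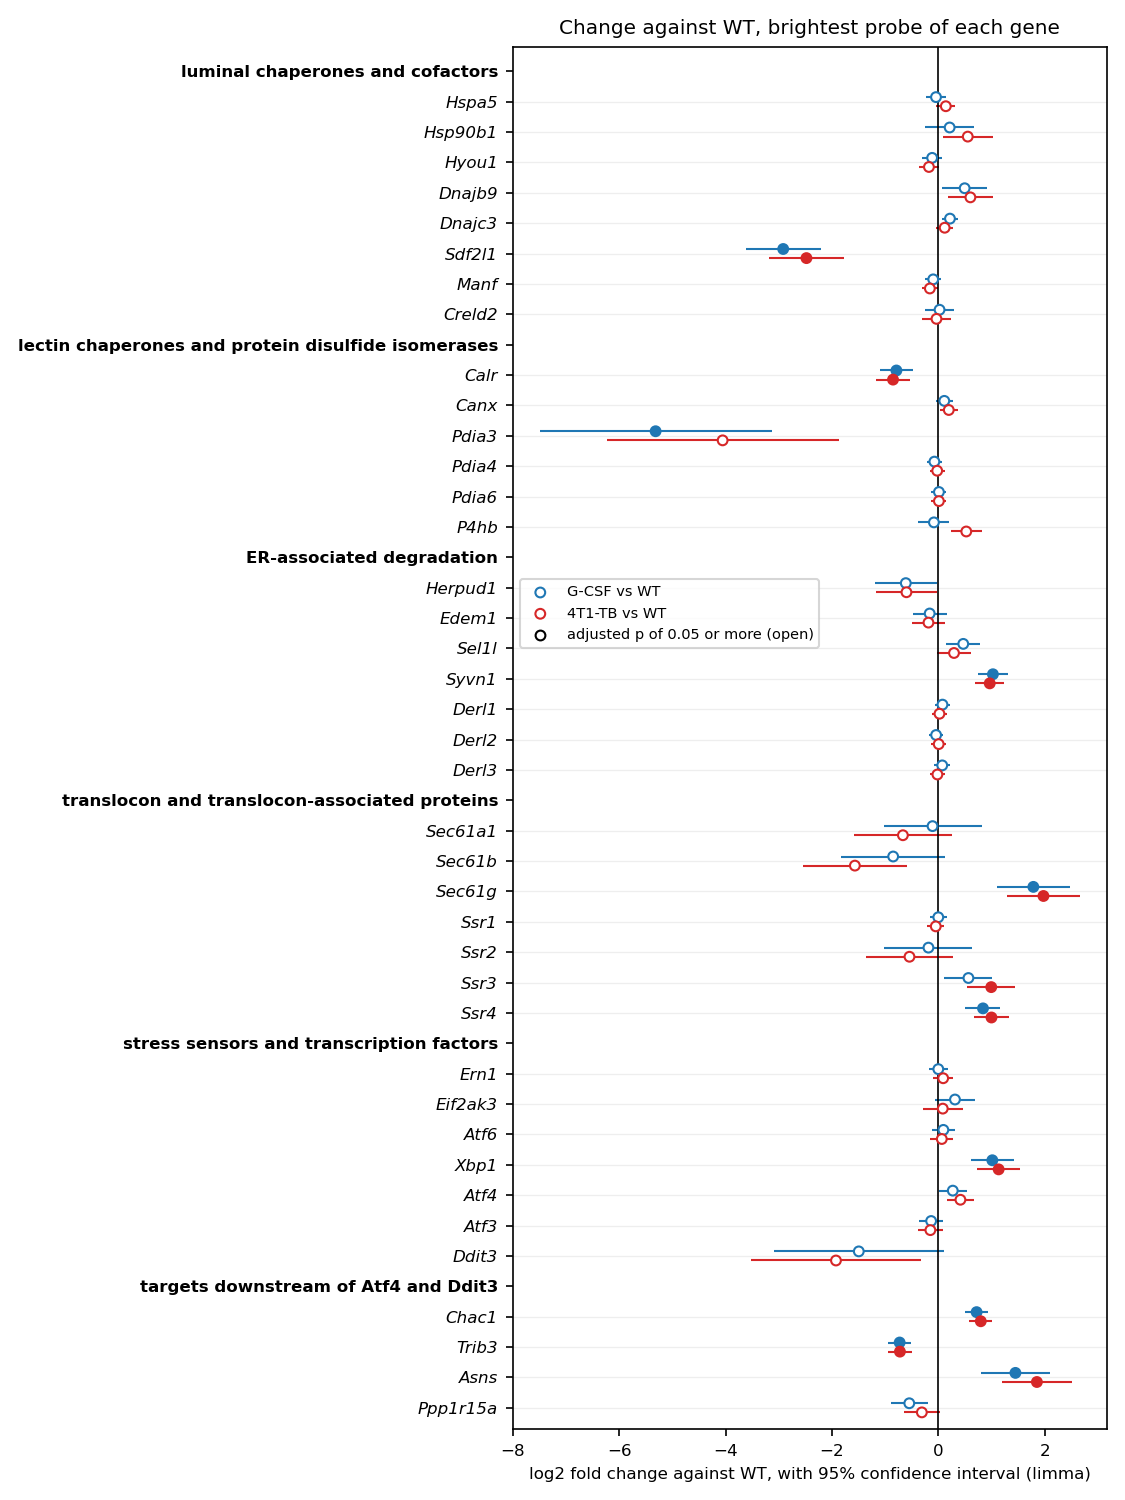
Log2 difference from WT of the member genes in 4T1-TB and in G-CSF cells, with 95% intervals from the limma fit and calls marked. Sec61g (1.97 and 1.78) and Asns (1.85 and 1.45) lie to the right of 0 and Pdia3 (−4.06 and −5.32) far to the left, with wide intervals for Pdia3 and Ddit3.

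Of the 7 sensors and transcription factors, Xbp1 was called. Xbp1, the factor whose mRNA Ern1 splices, read 9.21 and 8.73 in WT, 9.997 and 9.96 in G-CSF, and 10.20 and 10.0004 in 4T1-TB. The WT arrays lay below the other 4 and were the pair farthest apart. Xbp1 rose by 1.13 in 4T1-TB (SE 0.16, adjusted p = 0.0186) and by 1.01 in G-CSF (adjusted p = 0.0291). The array measures total Xbp1 and not its splicing. Of the sensors, Atf6 was detected on no array and Ern1 on 1, while Eif2ak3 read 7.54 and 7.09 in WT, 7.70 and 7.56 in G-CSF, and 7.39 and 7.41 in 4T1-TB. Its G-CSF arrays lay just above the WT pair and its 4T1-TB arrays between the 2 WT values, and it was not called.

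Atf4, the factor translated when Eif2ak3 phosphorylates eIF2, read 7.49 and 7.502 in WT, 7.92 and 7.61 in G-CSF, and 7.93 and 7.89 in 4T1-TB. Its WT values were the lowest, and the differences of 0.41 and 0.27 did not pass (adjusted p = 0.111 and 0.35). Ddit3 (CHOP) read 9.59 and 9.74 in WT, 7.11 and 9.23 in G-CSF, and 7.64 and 7.84 in 4T1-TB. The 4T1-TB arrays lay well below WT and the 2 G-CSF arrays lay far apart, and the difference of −1.93 in 4T1-TB was not called (adjusted p = 0.234). A second, dimmer Ddit3 probe read 7.45 and 7.54 in WT and 7.53 and 7.52 in 4T1-TB, a difference of 0.03, so the 2 probes did not give the same result. Atf3, an early stress factor, was detected on 3 arrays and differed from WT by −0.15 and −0.14.

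The 4 genes downstream of Atf4 and Ddit3 gave 2 higher and 1 lower in each comparison. Asns, which makes asparagine, read 7.03 and 6.98 in WT, 8.76 and 8.15 in G-CSF, and 9.16 and 8.55 in 4T1-TB. It was not detected in WT and was detected on all 4 other arrays. 4T1-TB exceeded WT in Asns by at least 3.45-fold (log2 1.85, SE 0.26, adjusted p = 0.0181) and G-CSF did so by at least 2.61-fold (1.45, adjusted p = 0.0441). A second Asns probe also rose, by 1.30 and 1.06 (adjusted p = 0.00603 and 0.0121). Chac1, which breaks down glutathione, read 7.02 and 6.90 in WT, 7.77 and 7.60 in G-CSF, and 7.70 and 7.82 in 4T1-TB, again undetected in WT. The rise was at least 1.61-fold for 4T1-TB (adjusted p = 0.00792) and at least 1.53-fold for G-CSF (adjusted p = 0.0116). Among the 4 genes with the composite element in their promoter window, these 2 were called higher, and Herpud1 and Atf3 were not called. All genes gave 5.41% higher in 4T1-TB and 4.12% in G-CSF (14.0% and 10.7% of detected genes). A link between element and level was not tested.

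Trib3, a pseudokinase that restrains Atf4 and Ddit3, differed by probe. Its brightest probe read 7.71 and 7.502 in WT, 6.89 and 6.86 in G-CSF, and 6.82 and 6.95 in 4T1-TB, so that WT exceeded 4T1-TB by at least 1.48-fold (adjusted p = 0.0115) and G-CSF by at least 1.49-fold (adjusted p = 0.0117). A second Trib3 probe was undetected in WT at 6.95 and 6.89 and read 7.27 and 7.24 in G-CSF and 7.20 and 7.06 in 4T1-TB. That probe was therefore 0.33 higher in G-CSF and 0.21 higher in 4T1-TB (adjusted p = 0.0636 and 0.211), and no single direction can be given for Trib3. Ppp1r15a (GADD34), which reverses eIF2 phosphorylation, read 8.81 and 8.71 in WT and 8.01 to 8.51 elsewhere, below WT on all 4 arrays without passing the test (−0.31 in 4T1-TB and −0.55 in G-CSF, adjusted p = 0.417 and 0.125). Median centring turned these differences to 0.67 and 0.58 (adjusted p = 0.547 and 0.596).

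Set beside the promoter windows printed above, the 9 genes with the ER stress element held 1 gene called higher (Syvn1), 1 called lower (Calr) and 7 not called. All genes gave 5.41% higher and 3.17% lower in 4T1-TB (14.0% and 8.22% of detected genes). For G-CSF the shares were 4.12% and 2.85% (10.7% and 7.39%). Hspa5, Canx, Pdia6 and Derl3 of those 7 were among the dim genes, so their levels could not be read, and Hsp90b1, Dnajc3 and Creld2 were detected without passing the test.

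**Figure D5:**
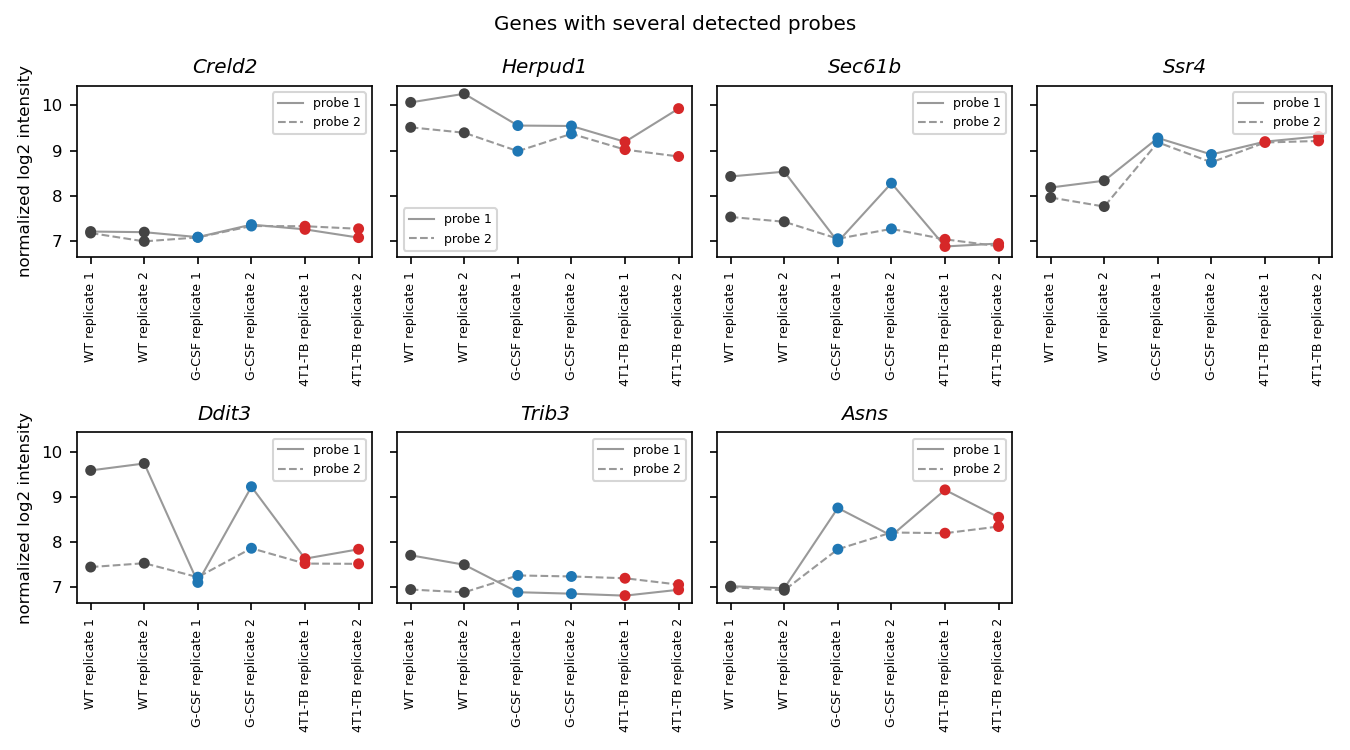
Normalized log2 intensity on each of the 6 arrays for every detected probe of the 7 genes with at least 2 detected probes. In 4T1-TB the log2 differences from WT were alike on both probes for Asns (1.85 and 1.30) and Ssr4 (0.997 and 1.34). They were not alike for Trib3 (−0.72 and 0.21) and Ddit3 (−1.93 and 0.03).

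4T1-TB and G-CSF cells were compared directly, a contrast whose means leave WT out but whose spread comes from all 3 groups. No member passed, and none of the 45281 probes did by limma (0 higher, 0 lower). At an unadjusted p under 0.05 the count was 1416 probes (3.13%), among them 2 member genes, P4hb and Hspa5. Hspa5 was among the dim genes, so its difference lay at the floor and is not a measured one. P4hb was 0.61 higher in 4T1-TB than in G-CSF (95% interval 0.32 to 0.90, unadjusted p = 0.00248, adjusted p = 1). For 32 of the 39 genes the 95% interval of this difference lay within 1 log2 unit of 0. These 32 include the 10 dim genes, and also Calr and Trib3, whose brightest probes were detected on no G-CSF or 4T1-TB array. The narrow intervals of all these genes lie at the floor and do not bound a difference. For Sdf2l1, Pdia3, Sec61a1, Sec61b, Ssr2, Ddit3 and Asns the interval reached further, so a larger difference in these 7 is not excluded. Without G-CSF replicate 1, Hsp90b1 and Sec61g were called higher and Sec61a1, Sec61b, Ssr2 and Ddit3 lower in 4T1-TB, at a background of 2.17% and 2.50%.

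The wider secretory pathway was read through 129 further genes in 7 lists, 123 of which were measured and 80 detected on at least 2 arrays. In 4T1-TB 19 were higher and 10 lower, and in G-CSF 14 were higher and 9 lower. These counts stand beside 5.41% higher and 3.17% lower of all genes in 4T1-TB (14.0% and 8.22% of detected genes), and 4.12% and 2.85% in G-CSF (10.7% and 7.39%). The list counts that follow are read against the same shares, and nothing particular to a list is drawn from them. In the list of other disulfide isomerases and ER oxidation, 3 of 15 rose and 1 fell in each comparison. Ppib, a prolyl isomerase of the ER, was undetected in WT, which 4T1-TB exceeded by at least 1.92-fold and G-CSF by at least 1.58-fold (adjusted p = 0.00233 and 0.00584). Erp29, a thioredoxin-fold chaperone, rose by 0.57 and 0.79 (adjusted p = 0.0416 and 0.0151). Among 16 genes of N-glycosylation, 3 rose in 4T1-TB and 0 in G-CSF, with 1 lower in each. The oligosaccharyltransferase subunit Rpn2 rose by 1.56 in 4T1-TB (adjusted p = 0.00812) and differed by 0.70 in G-CSF (adjusted p = 0.115). Ost4, a small subunit of the same enzyme, fell by 1.57 and by 1.71 (adjusted p = 0.021 and 0.0173).

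In the list of targeting, translocation and signal peptidase, 3 of 18 rose in 4T1-TB and 2 in G-CSF, and none fell. The signal peptidase subunit Sec11a rose by 0.84 and 0.98 (adjusted p = 0.00225 and 0.00153), and the signal recognition particle gene Srp9 by 0.87 and 0.79 (adjusted p = 0.0226 and 0.0347). Of 20 genes of vesicle transport between ER and Golgi, 4 rose in each, 1 fell in 4T1-TB and 0 in G-CSF, with Sar1b, the GTPase that starts COPII coats, up by 1.42 and 1.05 (adjusted p = 0.00174 and 0.00426). The 17 further degradation genes gave 1 higher and 2 lower in each, among them Edem2 (0.58 and 0.80, adjusted p = 0.0125 and 0.00475), which trims glycans of misfolded proteins. The 22 further Atf4 and integrated stress response genes were split, with 2 higher and 4 lower in 4T1-TB and 1 and 4 in G-CSF. The glycyl-tRNA synthetase Gars rose by 1.22 and 1.42 (adjusted p = 0.005 and 0.00333). Shmt2, the mitochondrial serine enzyme, fell by 3.05 in 4T1-TB, and WT exceeded G-CSF by at least 10.7-fold (adjusted p = 0.00735 and 0.00504), and Sesn2, a stress-induced inhibitor of growth signaling, was below WT by at least 2.11-fold and 2.13-fold (adjusted p = 0.0057 and 0.00709). Of 16 other sensors and eIF2 regulators, 3 rose and 1 fell in each, led by the eIF2 kinase Eif2ak2 (PKR), up by 1.33 and 1.19 (adjusted p = 0.00137 and 0.00182), and by Creb3, an ER-bound transcription factor, up by 0.91 and 1.09 (adjusted p = 0.00233 and 0.0015).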

How the data were processed

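RNA of sorted cells was measured on 6 single-color arrays. Per the paper's methods, the authors extracted intensities in GenomeStudio (its version is not given in the sources used here), subtracted background, and used lumi for log2 transformation and quantile normalization. The deposited intensity values hold none at or below 0, and quantile-normalizing their log2 gave the deposited log2 values to within 4.99e-09. The deposited detection p-values were taken from the same table. In the intensity table, 1 column each of G-CSF and of 4T1-TB carries a group and no number, and was used by group. There were 0 unused value columns.

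The deposited log2 values of all 45281 probes were fitted with limma 3.58.1 in R 4.3.3 (means of 3 groups, 3 residual degrees of freedom plus 2.59 from the prior), adjusted over all probes. The script was tested on simulated data. Probe symbols came from the platform annotation: 34885 probes have 1 gene, 18 several and 10378 none. The brightest probe stands for a gene. A group that is undetected on both its arrays is set at a floor per array, the lowest signal among detected probes or the probe's own value if higher, and its fold is written as a bound ("at least"), which is the bright group's mean against that floor. Named genes are those detected on at least 2 arrays with an adjusted p under 0.05 or a change of at least 1 log2 unit against WT, and up to 3 genes with the smallest p per further list; P4hb, Herpud1 and other members were added after their values were seen. The members and lists were chosen with earlier results of these data known. The methods call the 2 replicates of a group biologic, from separate experiments, and do not say which animals each array holds. p-values measure the spread between these arrays, and the number of arrays limits precision: the 95% interval of a detected member reached a median of 0.34 log2 units to either side. Other scalings, filters, probes, priors, a replicate block and left-out arrays were tried.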

Additional observations from a re-analysis of the deposited data

How the results depend on the processing

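The number of members higher in 4T1-TB (7) became 3 by a 2-fold change with unadjusted p under 0.01 (3.39% of all genes), 0 with median centring, 11 with only the 4 arrays compared (11.9%), and 1 to 11 with 1 array left out (0.981% to 11.9%). The number lower (3) became 0, 9 (6.03%) and 1 to 9 (1.21% to 6.03%) under the latter 3, and 5 over probes detected on at least 2 arrays (9.69%). In G-CSF the number higher (6) became 0 with median centring, 2 with the 4 arrays (2.38%) and 0 to 10 with 1 array left out (0.871% to 11.8%), and the number lower (4) became 2 by the 2-fold rule (2.02%), 0 with median centring, 2 with the probe of lowest mean detection p (2.37%), and 1 to 8 with 1 array left out (1.19% to 5.92%). Against G-CSF, 4T1-TB had 0 to 2 higher and 0 to 4 lower with 1 array left out (up to 2.17% and 2.5%). The next 2 settings were chosen after seeing the data. Without both arrays with erythroid signal, the numbers lower were 8 in 4T1-TB (5.69%) and 7 in G-CSF (4.2%), and 4T1-TB against G-CSF had 3 higher and 4 lower (2.72% and 2.82%). Over probes detected on all 6 arrays, 1 was lower in each comparison with WT (8.66% and 7.16%), and the member medians were 0.52 (4T1-TB), 0.21 (G-CSF) and 0.16 (4T1-TB against G-CSF), beside 0.34, 0.30 and 0.03 for all genes so filtered. Median centring moved the G-CSF median to 0.11. The probe of lowest mean detection p reversed Ddit3 (0.0317 in 4T1-TB, 0.0535 in G-CSF) and Trib3 (0.21 and 0.33), since it is another probe. The causes of the other shifts were not tested.

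Deviations of same-numbered arrays correlated at 0.02 (WT and G-CSF), −0.02 (WT and 4T1-TB) and 0.24 (G-CSF and 4T1-TB), so pairing by number was not taken to hold over all 3 groups. With the replicate block the 4T1-TB comparison called 6 members up and 3 down (Ssr3 lost), and the G-CSF comparison 6 up and 4 down (Ssr4 lost, Sel1l gained). Over all alternatives, the values of the 13 members called or changed at least 2-fold kept direction and side of the threshold in 283 cases, lost the call in 95, gained one in 22 and reversed in 4. Of the 283, 26 came from values recomputed from the intensities, which equal the deposited ones and could not differ. For a comparison with WT, leaving out either array of the third group repeats the fit of the 4 arrays compared. The cases are therefore not separate tests.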
